A study of Mus musculus with 10 samples.

Results

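The dual-specificity MAP kinase phosphatases are enzymes that switch MAP kinases off by removing phosphate from both the threonine and the tyrosine of the activation loop. The group described here holds 8 genes, Dusp1, Dusp2, Dusp4, Dusp5, Dusp6, Dusp7, Dusp10 and Dusp16, taken by symbol from a table of 54532 genes. Each symbol occurred once in the table, and all 8 passed the filter on low counts. RNA sequencing had been run on B cells of the spleen in 2 groups: animals whose livers were made fibrotic by intraperitoneal carbon tetrachloride, a hepatotoxic solvent, given for 4 weeks (fibrosis, 5 libraries), and wildtype animals (control, 5 libraries). The labels give no other allele or agent in either group. The sources used here do not give strain, age, sex, the way the B cells were isolated, or whether the controls received the injection vehicle. The comparison addresses whether transcripts of these B cells differ between the groups. Liver state, exposure to the solvent and, if controls had none, the injections cannot be told apart.

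MAP kinases of the ERK, JNK and p38 classes carry signals from the B cell receptor, from Toll-like receptors and from stress into the nucleus. The phosphatases fall into inducible nuclear enzymes (Dusp1, Dusp2, Dusp4, Dusp5), cytoplasmic enzymes directed at ERK (Dusp6, Dusp7) and enzymes directed mainly at JNK and p38 (Dusp10, Dusp16). Several are themselves induced by the kinases that they inactivate and so act as negative feedback, which makes their transcripts a common readout of MAP kinase activity in lymphocytes.

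Libraries held 13439100 to 17069393 counts in fibrosis and 15912080 to 17954551 in control. All 10 B cell markers examined were detected, at a summed 16230 to 24040 CPM (counts scaled to depth, with TMM library sizes) in fibrosis and 13460 to 15210 CPM in control. T cell markers summed to 96.0 to 168 CPM in fibrosis and 86.8 to 113 CPM in control. Macrophage markers summed to 936.5 to 3362 CPM in fibrosis and 1358 to 2390 CPM in control. Neutrophil markers summed to 400.5 to 4702 CPM in fibrosis and 635.1 to 1805 CPM in control. The macrophage sum was 3137 and 3362 CPM in fibrosis 4 and 5, against 1109, 1056 and 936.5 CPM in fibrosis 1 to 3. By the test described below, 18.6% of all tested genes were higher in fibrosis and 17.2% lower. Beside those shares, platelet markers were higher in fibrosis (11 of 11 tested), erythroid markers lower (14 of 19) and cycling-cell markers lower (15 of 15). B cell markers were higher in 5 of 10 and lower in 0. Dendritic cell markers were higher in 5 of 10, with a summed 294.5 to 374 CPM in fibrosis and 180.2 to 201.8 CPM in control, and NK cell markers in 4 of 10, with 87.1 to 185 CPM in fibrosis and 76.8 to 131.7 CPM in control. Their part in the results below was not tested. In bulk RNA, fewer cells of a type and less RNA per cell cannot be told apart. Fibrosis 4 and 5 stood apart from fibrosis 1 to 3 on the second principal component, and results that rest on them are given without them too.

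In fibrosis, Dusp16 was higher, with a log2 change of 1.00, and Dusp10, Dusp6 and Dusp5 were lower, at 0.566, 0.652 and 0.768 of the control level. Dusp1, Dusp2, Dusp4 and Dusp7 did not pass the test. With edgeR's quasi-likelihood test and an adjusted p below 0.05 as the threshold, 1 of 8 members was higher and 3 were lower, against 18.6% of all 14283 tested genes higher and 17.2% lower (35.7% in either direction). The higher share of all calls was 52.0% with TMM scaling and 35.0% when libraries were scaled by size only, and the 4 called members kept their directions under that scaling. Groups did not overlap for 3 of 8 members, against 25.4% of all tested genes. The median log2 change was -0.18 over the 8 members and 0.05 over all tested genes, and the median absolute change was 0.46 over the members and 0.30 over all tested genes.

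**Figure D1:**
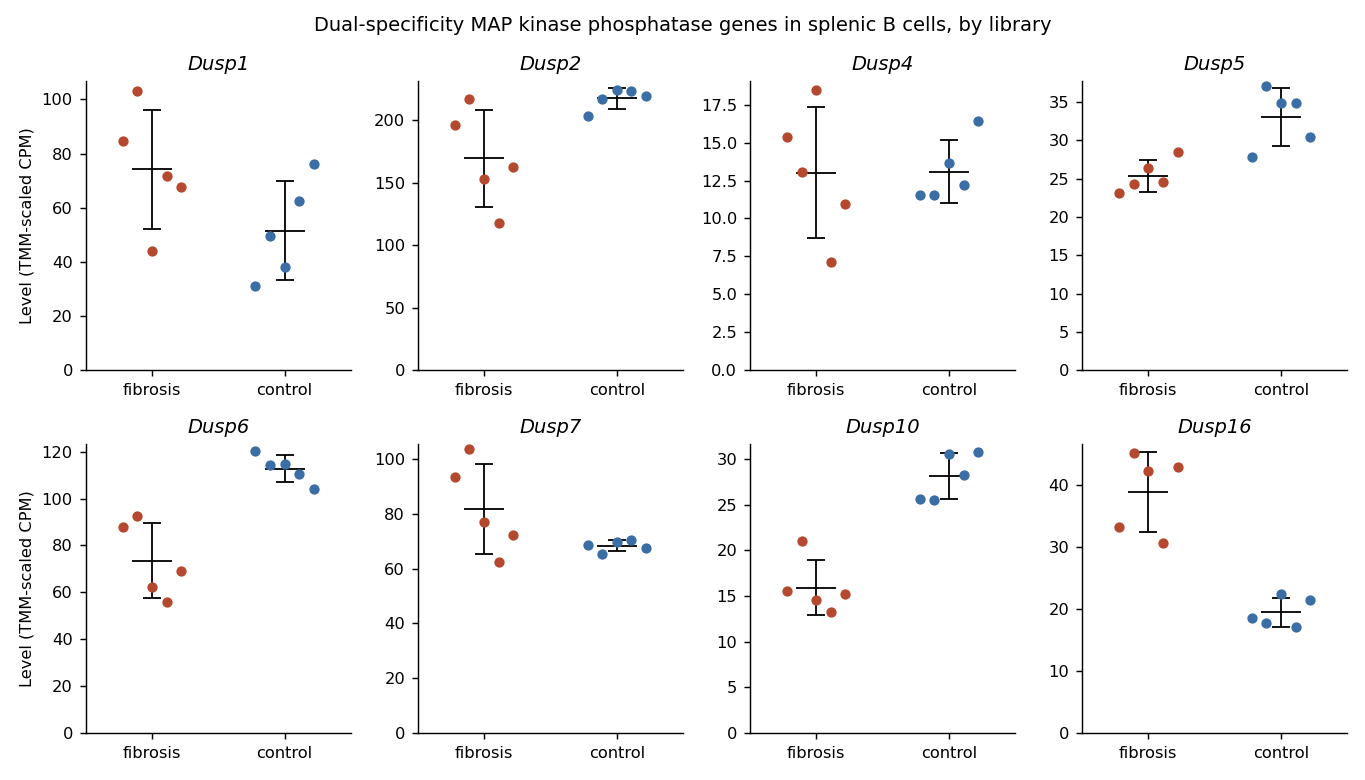
Level of each of the 8 phosphatase genes in TMM-scaled CPM, with a point for each library, the mean (horizontal line) and SD (bar) of 5 fibrosis and 5 control libraries. The groups do not overlap for Dusp6, Dusp10 and Dusp16. By SD, the fibrosis libraries spread more widely than the controls for every gene except Dusp5.

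Levels of different genes are compared per length, as the authors' FPKM. The 8 genes summed to 183 ± 39.0 FPKM in fibrosis and 214 ± 9.57 FPKM in control (SD, n = 5 each). The nuclear enzymes took 68.6% ± 0.686 of that sum in fibrosis and 68.1% ± 2.08 in control, and the enzymes directed at JNK and p38 took 5.58% ± 0.693 in fibrosis and 5.48% ± 0.409 in control. The classes thus kept their shares within the spread of the libraries, while Dusp16 and Dusp10, which share a class, changed in opposite directions. Dusp2 was the most abundant member in every library, at 83.5 ± 20.3 FPKM in fibrosis and 109 ± 3.84 FPKM in control. In control the order then ran Dusp6 (36.0 ± 1.86 FPKM), Dusp7 (20.3 ± 0.572), Dusp1 (19.1 ± 6.82), Dusp5 (13.3 ± 1.49), Dusp10 (9.23 ± 0.810), Dusp4 (4.77 ± 0.748) and Dusp16 (2.49 ± 0.293). Of the neighbours in that order, Dusp1 overlapped both Dusp7 and Dusp5 across the control libraries, and Dusp10, Dusp4 and Dusp16 did not overlap each other. In fibrosis, Dusp1 (27.2 ± 8.35 FPKM), Dusp7 (24.1 ± 5.30) and Dusp6 (23.2 ± 5.45) lay within their spread of each other, and so did Dusp10 (5.15 ± 1.01), Dusp16 (4.89 ± 0.764) and Dusp4 (4.69 ± 1.61), with Dusp5 between these sets at 10.1 ± 0.548 FPKM.

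Among the nuclear enzymes, Dusp5 was the member that passed the test. Dusp5, a phosphatase specific for ERK on chromosome 19 (53529109 to 53542431, plus strand, GRCm38), stood at 23.1, 24.3, 26.4, 24.5 and 28.4 CPM in fibrosis 1 to 5, against 27.8, 37.0, 34.8, 34.9 and 30.5 CPM in control 1 to 5. Fibrosis 5 lay above control 1, and the other fibrosis libraries lay below every control. The log2 change was -0.38 ± 0.10 (SE; adjusted p = 0.00987 by edgeR). It kept its call without any 1 library (-0.44 to -0.34) and without fibrosis 4 and 5 (-0.42, adjusted p = 0.0119; 0.00134 to 0.203 across the alternatives).

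Dusp2, a nuclear phosphatase abundant in blood cell lineages, lies on chromosome 2 (127336159 to 127338376, plus strand). It was at 197, 217, 153, 118 and 163 CPM in fibrosis 1 to 5, against 204, 217, 225, 224 and 219 CPM in control 1 to 5. Fibrosis 2 lay within the range of the controls, and fibrosis 1, 3, 4 and 5 were lower than every control. The coefficient of variation was 22.9% in fibrosis and 3.90% in control. The change of -0.36 ± 0.14 had an adjusted p of 0.0546 by edgeR and did not pass. It passed with DESeq2 (-0.37, adjusted p = 0.0394) and without fibrosis 1 (-0.42, adjusted p = 0.0352) or fibrosis 2 (-0.47, adjusted p = 0.013), and without fibrosis 4 and 5 it stood at -0.20 (adjusted p = 0.153; 0.00727 to 0.153 across the alternatives).

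Dusp1, an immediate-early gene whose nuclear product acts on p38, JNK and ERK, lies on chromosome 17 (26505590 to 26508519, minus strand). It had 84.8, 103, 43.9, 71.6 and 67.7 CPM in fibrosis 1 to 5, against 30.9, 49.5, 38.2, 62.5 and 76.2 CPM in control 1 to 5. The groups overlapped, with fibrosis 3 below controls 2, 4 and 5. Its change of 0.53 ± 0.27 did not pass (adjusted p = 0.142 by edgeR), with an approximate 95% interval from -0.08 to 1.14 on the log2 scale, so these libraries allow a rise of more than 2-fold or a small fall. It passed narrowly with voom quality weights (0.73, adjusted p = 0.0491; up to 0.747 across the alternatives). Dusp1 had the widest spread among control libraries of the 8 genes (35.4%).

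Dusp4, a nuclear phosphatase of ERK and JNK on chromosome 8 (34807297 to 34819894, plus strand), was at 15.4, 13.1, 18.5, 7.14 and 10.9 CPM in fibrosis 1 to 5, against 11.5, 11.6, 13.7, 12.2 and 16.4 CPM in control 1 to 5. Fibrosis libraries lay on both sides of the controls, with fibrosis 4 the lowest of all 10. It averaged 13.0 ± 4.32 CPM in fibrosis and 13.1 ± 2.06 CPM in control (log2 change -0.003 ± 0.21, adjusted p = 0.993 by edgeR), and the approximate 95% interval ran from -0.49 to 0.48.

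Of the cytoplasmic enzymes directed at ERK, Dusp6 fell and Dusp7 did not pass. Dusp6, a feedback inhibitor of ERK on chromosome 10 (99263231 to 99267489, plus strand), was at 87.9, 92.6, 62.4, 55.7 and 69.1 CPM in fibrosis 1 to 5, against 120, 114, 115, 110 and 104 CPM in control 1 to 5. Every fibrosis library lay below every control, with fibrosis 1 and 2 nearest to them. The log2 change was -0.62 ± 0.13 (adjusted p = 0.00248 by edgeR), and it was -0.47 without fibrosis 4 and 5 (adjusted p = 0.00689; 5.52e-07 to 0.0325 across the alternatives).

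Dusp7, on chromosome 9 (106368632 to 106375724, plus strand), was at 93.6, 103, 77.0, 62.5 and 72.2 CPM in fibrosis 1 to 5, against 68.6, 65.2, 69.8, 70.4 and 67.6 CPM in control 1 to 5. Fibrosis 4 was below every control and the other fibrosis libraries were above every control. The change of 0.26 ± 0.12 did not pass (adjusted p = 0.11 by edgeR). It passed without fibrosis 4 (0.34, adjusted p = 0.0226) and without fibrosis 4 and 5 (0.43, adjusted p = 0.00304; up to 0.676 across the alternatives). The B cell markers stood above their control mean on the log2 scale by 0.47, 0.60, 0.49, 0.04 and 0.13 in fibrosis 1 to 5. Among the fibrosis libraries they were, like Dusp7, highest in fibrosis 2 and lowest in fibrosis 4. Dusp2, Dusp6, Dusp10 and Dusp16 were likewise highest in fibrosis 2 and lowest in fibrosis 4 within that group. The part of the B cell markers in the levels of these genes was not tested.

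The enzymes directed at JNK and p38 moved in opposite directions. Dusp16, on chromosome 6 (134715468 to 134792625, minus strand), was at 33.2, 45.03, 42.2, 30.5 and 42.8 CPM in fibrosis 1 to 5, against 18.6, 17.7, 22.4, 17.0 and 21.4 CPM in control 1 to 5. Every fibrosis library lay above every control. The log2 change was 1.00 ± 0.13 (adjusted p = 9.55e-05 by edgeR), the smallest p of the 8, at rank 396 of 14283 genes. Leaving out any 1 library kept it between 0.94 and 1.07, and without fibrosis 4 and 5 it was 1.05 (adjusted p = 5.37e-05; 1.98e-11 to 0.129 across the alternatives). The antisense gene Gm36328, which lies within the span of Dusp16, had at most 9 counts in any library.

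Dusp10, on chromosome 1 (184013302 to 184075636, plus strand), was at 15.5, 21.0, 14.6, 13.2 and 15.2 CPM in fibrosis 1 to 5, against 25.6, 25.5, 30.6, 28.2 and 30.8 CPM in control 1 to 5. Here every fibrosis library lay below every control. The log2 change was -0.82 ± 0.13 (adjusted p = 0.000325 by edgeR), between -0.94 and -0.76 without any 1 library and -0.72 without fibrosis 4 and 5 (adjusted p = 0.00119; 6.5e-09 to 0.0323 across the alternatives). A gene on the opposite strand within its span, 1700056E22Rik, had 22 to 48 counts per library, against 167 to 575 for Dusp10. The sources used here do not say whether counting used strand, so reads of these overlapping genes may not have been kept apart.

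**Figure D2:**
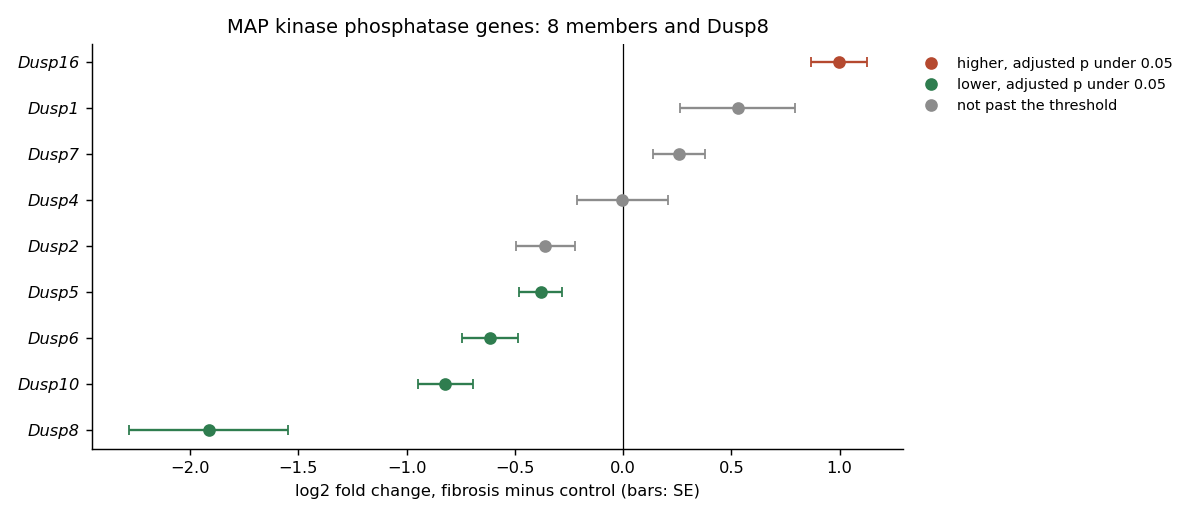
Log2 fold change, fibrosis minus control, of the 8 phosphatase genes and of Dusp8, with SE bars and 5 libraries in each group. Dusp16 lies at 1.00 and is the member past the threshold on the higher side, while Dusp5, Dusp6 and Dusp10 lie past it on the lower side, and Dusp8 lies at -1.91.

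Ratios within a library do not depend on how libraries are scaled, and 3 were chosen after the values were seen and are given with no test. The FPKM ratio of Dusp16 to Dusp10 was 0.835, 0.836, 1.13, 0.899 and 1.10 in fibrosis 1 to 5, against 0.283, 0.270, 0.286, 0.235 and 0.272 in control 1 to 5. Dusp10 was thus the more abundant transcript of this pair in every control, and the pair was near parity in fibrosis. The ratio of Dusp7 to Dusp6 was 1.04 ± 0.0681 in fibrosis (0.975 to 1.15) and 0.566 ± 0.0339 in control (0.532 to 0.605). Although Dusp6 and Dusp7 each spread widely among the fibrosis libraries, their ratio did not. The ratio of Dusp1 to Dusp6 was 1.17 ± 0.247 in fibrosis and 0.539 ± 0.219 in control, and its ranges overlapped (0.817 to 1.49 and 0.299 to 0.848).

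**Figure D3:**
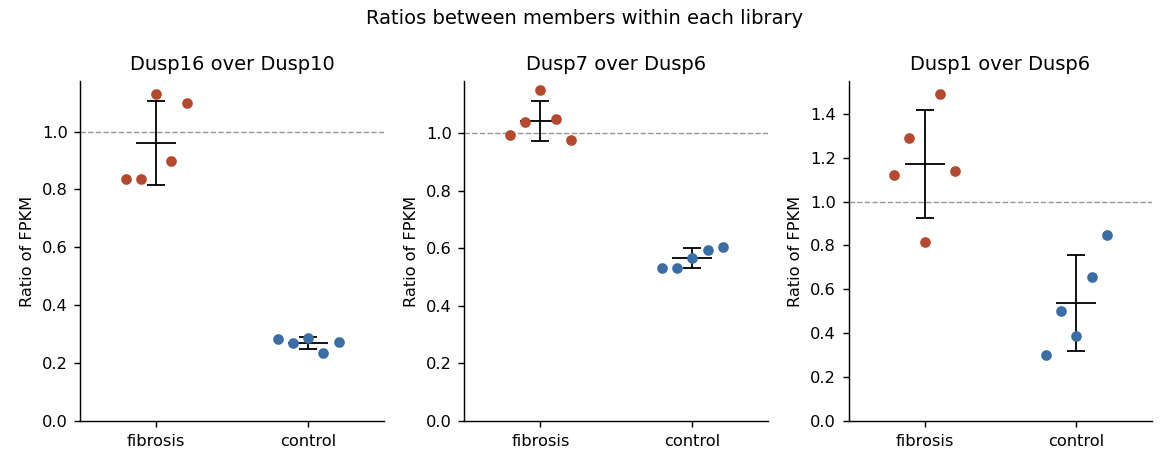
Ratio of FPKM between pairs of phosphatase genes within each library, with the mean and SD of 5 fibrosis and 5 control libraries and a dashed line at equal levels. The ratio of Dusp16 to Dusp10 lies between 0.835 and 1.13 in fibrosis and between 0.235 and 0.286 in control, and that of Dusp7 to Dusp6 between 0.975 and 1.15 in fibrosis and between 0.532 and 0.605 in control.

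**Figure D4:**
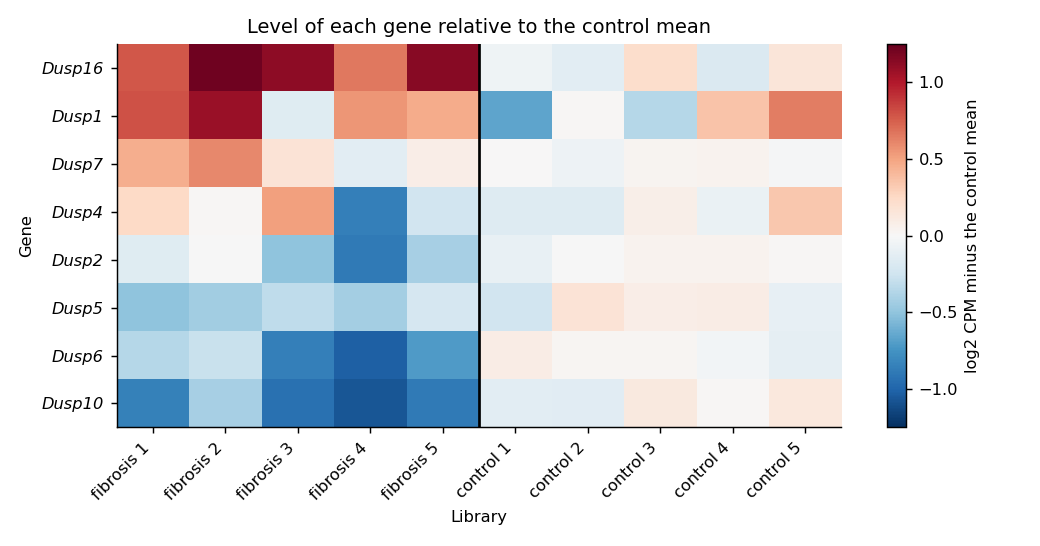
Log2 CPM of each phosphatase gene minus its control mean, in each of the 10 libraries, with genes ordered by their change. Dusp2, Dusp4, Dusp6, Dusp7 and Dusp10 each have their lowest value of all libraries in fibrosis 4, where Dusp6 is at -1.02 and Dusp10 at -1.07.

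Within the fibrosis group the 8 genes did not share an order. Dusp2, Dusp4, Dusp6, Dusp7, Dusp10 and Dusp16 were each lowest in fibrosis 4, where the neutrophil markers were 1.21 and the platelet markers 2.51 above the control mean on the log2 scale. Dusp5 was lowest in fibrosis 1 and Dusp1 in fibrosis 3. Fibrosis 5 shared the raised neutrophil and platelet markers of fibrosis 4 (1.33 and 2.59), and there Dusp16 was at 42.8 CPM. On the mean of log2 levels, the erythroid markers were below the control mean in every fibrosis library, least in fibrosis 4 (-0.44) and most in fibrosis 2 (-2.39). Their summed CPM did not separate the groups, at 1251 to 8631 in fibrosis and 5434 to 8407 in control, with fibrosis 4 above every control. The globin genes of that list did not pass, with log2 changes from -0.41 to 1.20. Within the fibrosis group, Dusp2, Dusp4, Dusp6, Dusp7, Dusp10 and Dusp16 were thus lowest in the library with the highest erythroid level. That library, fibrosis 4, also had the lowest B cell marker level of the group (0.04), and the part of either was not tested. When the mean erythroid level of a library entered the fit, 1.16% of genes were called, Dusp10 was at -1.21 (adjusted p = 0.0323), Dusp6 at -1.11 (adjusted p = 0.0325) and Dusp16 at 0.61 (adjusted p = 0.129 by edgeR). That mean log2 level does not overlap between the groups, from -2.39 to -0.44 in fibrosis and from -0.20 to 0.31 in control, so it and the group cannot be told apart.

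Promoters are shown for the 4 members that passed the test, as 250 bases before to 50 after the start site, so that the control elements of genes that moved in different directions can be set side by side. Sequences come from RefSeq on GRCm38.p6, where 7 of the 8 members were matched. Windows were searched on both strands for the cyclic AMP response element TGACGTCA (in 1.79% of 32817 windows of all genes), its half-site TGACG (20.8%, which includes windows holding the full element), the E-box CACGTG (7.15%), the CCAAT box (CCAAT, 37.4%) and the CArG box bound by serum response factor (1.63%). Capitals mark the matches. The windows are chr6:134792579-134792878 (minus strand) for Dusp16, chr1:184034131-184034430 (plus) for Dusp10, chr10:99262981-99263280 (plus) for Dusp6 and chr19:53528895-53529194 (plus) for Dusp5.
Dusp16: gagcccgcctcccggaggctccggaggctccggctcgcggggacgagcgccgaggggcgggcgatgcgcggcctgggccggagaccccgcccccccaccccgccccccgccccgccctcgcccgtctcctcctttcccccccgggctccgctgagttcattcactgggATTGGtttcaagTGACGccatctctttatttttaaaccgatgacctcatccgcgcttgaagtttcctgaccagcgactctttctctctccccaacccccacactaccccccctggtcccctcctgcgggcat
Dusp10: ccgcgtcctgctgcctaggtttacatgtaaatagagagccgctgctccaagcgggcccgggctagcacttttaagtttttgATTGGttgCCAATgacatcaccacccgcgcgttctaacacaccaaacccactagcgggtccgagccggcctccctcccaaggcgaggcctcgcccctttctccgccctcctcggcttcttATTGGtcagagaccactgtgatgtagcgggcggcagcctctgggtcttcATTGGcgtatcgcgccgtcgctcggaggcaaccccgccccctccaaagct
Dusp6: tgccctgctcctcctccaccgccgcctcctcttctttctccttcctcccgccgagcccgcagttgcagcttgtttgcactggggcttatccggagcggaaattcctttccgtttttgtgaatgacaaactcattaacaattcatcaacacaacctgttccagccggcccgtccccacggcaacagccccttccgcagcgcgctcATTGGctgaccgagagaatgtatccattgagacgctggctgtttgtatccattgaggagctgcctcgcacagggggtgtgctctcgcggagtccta
Dusp5: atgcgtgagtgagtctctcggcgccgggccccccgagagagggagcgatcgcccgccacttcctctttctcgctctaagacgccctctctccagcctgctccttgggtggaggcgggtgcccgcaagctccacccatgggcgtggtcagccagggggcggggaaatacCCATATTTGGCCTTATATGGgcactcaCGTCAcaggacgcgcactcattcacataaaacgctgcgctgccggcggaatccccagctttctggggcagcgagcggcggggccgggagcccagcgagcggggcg

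The Dusp5 window held 2 CArG boxes, starting 82 and 72 bases before the start site, and 1 half-site. Dusp10 held 4 CCAAT boxes, Dusp6 and Dusp16 held 1 each, and Dusp16 also held 1 half-site. The full cyclic AMP response element was in none of these 4 windows. Among the other members it was in the window of Dusp1, starting 143 bases before the start site. The Dusp10 window lies inside the listed span of the gene, which starts further upstream. A match is a description of letters in these windows and does not show binding.

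Of the related phosphatase genes outside the 8, the JNK and p38 phosphatase gene Dusp8 fell, at 3.79, 1.97, 2.57, 3.57 and 0.651 CPM in fibrosis 1 to 5, against 8.69, 7.87, 6.38, 8.88 and 15.5 CPM in control 1 to 5. Its groups did not overlap (-1.91 ± 0.37, adjusted p = 0.00159 by edgeR). Dusp8 was lowest in fibrosis 5 and 2, where the mean log2 level of the erythroid markers was lowest (-2.24 and -2.39 relative to the control mean). It was highest in control 5, where that level was highest (0.31). The part of those cells in this fall was not tested. With the erythroid covariate, which cannot be told apart from the group, the change was -0.60 (adjusted p = 0.612 by edgeR, and 4.84e-13 to 0.612 across the alternatives). The other genes of that list, Dusp9 and Styxl1, named after their values were seen, averaged under 1 CPM in both groups and did not pass. Ptpn7, a tyrosine phosphatase of ERK and p38 in blood cells, fell to 71.2 ± 9.64 CPM in fibrosis, against 95.9 ± 5.12 CPM in control (-0.43 ± 0.10, adjusted p = 0.00371 by edgeR). It was the 1 called gene among 6 tested MAP kinase phosphatases of other families, beside 35.7% of all tested genes called.

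Several genes of ERK feedback and ERK response were lower with Dusp5 and Dusp6. Of 16 tested genes on that list, 6 were lower and 1 higher, beside 17.2% of all tested genes lower and 18.6% higher. The median of the list was -0.33, against 0.05 over all tested genes. Spred2, an inhibitor of the Ras to ERK step, was at 8.86, 9.98, 9.45, 7.06 and 8.85 CPM in fibrosis 1 to 5, against 14.5, 15.9, 15.1, 12.8 and 17.1 CPM in control 1 to 5 (-0.77 ± 0.13, adjusted p = 0.00048 by edgeR). Egr1, an immediate-early transcription factor gene, averaged 31.5 ± 7.35 CPM in fibrosis and 51.7 ± 5.26 CPM in control (-0.71 ± 0.15, adjusted p = 0.0022). For both genes, all fibrosis libraries lay below all controls. Spry4, of the Sprouty inhibitors of receptor signalling, had 4 to 14 counts per fibrosis library and 24 to 40 per control (-1.55 ± 0.31, adjusted p = 0.00185). With the erythroid covariate, which cannot be told apart from the group, these genes kept their direction but did not pass. There Spred2 was at -1.01, Egr1 at -0.97 and Spry4 at -2.78 (adjusted p = 0.0648, 0.095 and 0.0527 by edgeR). The higher gene, named after its value was seen, was the cyclin gene Ccnd1 (0.34 ± 0.12, adjusted p = 0.0466).

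**Figure D5:**
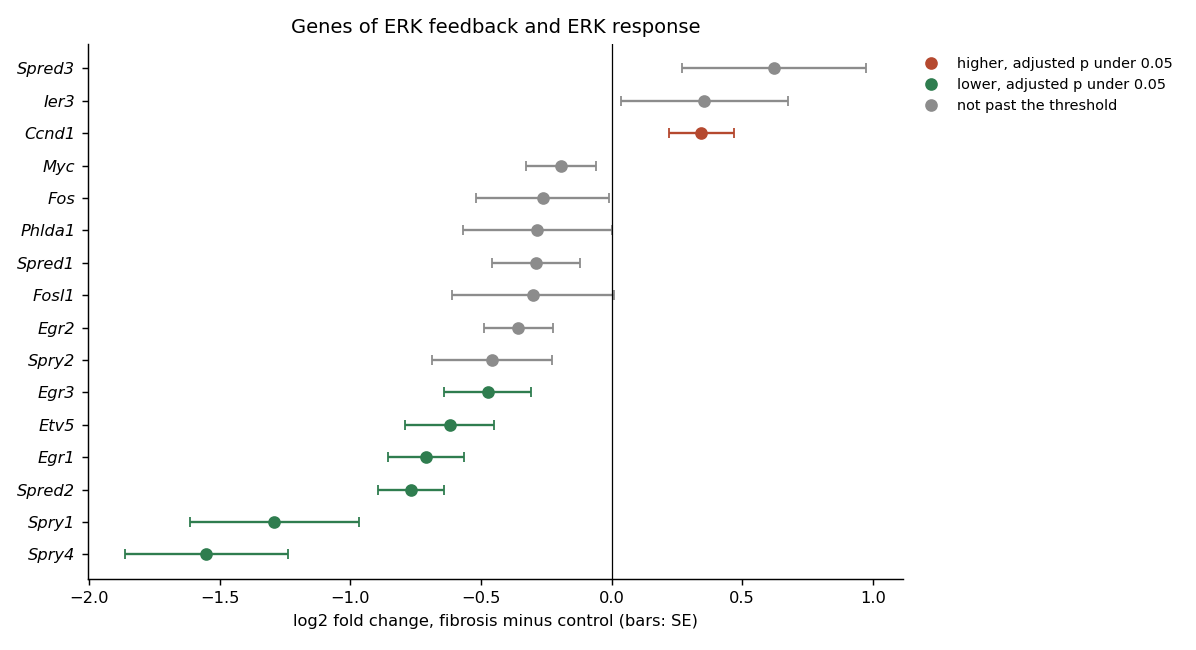
Log2 fold change, fibrosis minus control, of the 16 tested genes on the list of ERK feedback and ERK response, with SE bars and 5 libraries in each group. The 6 genes past the threshold on the lower side run down to Spry4 at -1.55, and Ccnd1 at 0.34 is past it on the higher side.

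Of 11 tested MAP kinase genes, 2 were higher and 1 lower, with a median of -0.01, beside 35.7% of all tested genes called in either direction. Mapk12, which encodes p38 gamma, was at 12.6, 11.0, 15.6, 11.4 and 11.5 CPM in fibrosis 1 to 5, against 2.79, 2.15, 3.35, 2.89 and 2.91 CPM in control 1 to 5 (2.14 ± 0.16, adjusted p = 9.37e-06 by edgeR). Mapk11, which encodes p38 beta, rose by 0.74 ± 0.13.

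Upstream, 1 of 7 tested MAP2K genes was higher and 1 lower. Map2k1, which activates ERK, rose by 0.40 ± 0.09 (adjusted p = 0.00357), and Map2k3, which activates p38, fell to 79.6 ± 7.66 CPM in fibrosis, against 109 ± 9.91 CPM in control (-0.46 ± 0.09, adjusted p = 0.00209 by edgeR). Of 20 tested RAF and MAP3K genes, 5 were higher and 3 lower. Map3k8, a kinase of Toll-like receptor signalling to ERK, rose by 0.55 ± 0.11, while Map3k20 and Map3k13 fell by 0.77 and 1.504 on the log2 scale. Of 10 tested kinases that MAP kinases activate, 2 were higher, Rps6ka5 (0.73 ± 0.13) and Rps6ka3 (0.48 ± 0.09), and 2 lower. Of the lower genes, Rps6ka1 (-0.35 ± 0.12, adjusted p = 0.0379), lost its call without 8 of the 10 libraries in turn, and without fibrosis 4 and 5 it stood at -0.22 (adjusted p = 0.164; 0.00119 to 0.298 across the alternatives). Across all 102 tested genes of the pathway lists, 18 were higher and 16 lower, which is 33.3%, close to the 35.7% called among all tested genes. With the erythroid covariate, which cannot be told apart from the group, 2 of these genes were called.

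For each member, the genes with the most similar profile were taken as those with the smallest root mean square difference of centred log2 CPM over the 10 libraries, among 8785 protein-coding genes. For Dusp16 they were Ppp3cc, which encodes a calcineurin catalytic subunit (0.0972 on the log2 scale), and Zfp943 (0.11). For Dusp10 they were Polm (0.14) and Nup133 (0.153), for Dusp6 Polr1b (0.0882) and Jmjd8 (0.0946), and for Dusp5 the prostaglandin receptor gene Ptger4 (0.0869) and Naf1 (0.11). Dusp7 had the closest of all, Zfp746 (0.0396) and Psd4 (0.0517). Those of Dusp2 were Fam43a (0.0929) and Zfp276 (0.104), those of Dusp4 were Kat6b (0.158) and Dclk2 (0.166), and those of Dusp1 were the chemokine receptor gene Cxcr4 (0.262) and Slamf8 (0.315). The median candidate differed by 0.303 (for Dusp7) to 0.557 (for Dusp1). Between members, Dusp2 and Dusp6 were the most alike (0.156) and Dusp10 and Dusp16 the least (0.92). All 10 libraries entered these values, so the group difference is part of the likeness.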

How the data were processed

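Splenic B cell RNA was sequenced in 10 libraries, 5 from fibrosis and 5 from control mice, assigned to groups from the labelled disease state. Per the labels' protocols, mRNA was selected with poly-T beads, copied to cDNA from random hexamers, and PCR followed. GRCm38 (mm10) is the build in the submitters' processing notes. The sources used here name no aligner, counter or strand setting. The authors deposited whole-number counts per gene, and FPKM, which equal count over length and library total times a factor per library of 0.935 to 1.07.

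From the counts, edgeR 4.0.16 (R 4.3.3) tested 14283 genes (filterByExpr, TMM, quasi-likelihood with robust dispersion, no covariate), which held 99.9% of the counts, with Benjamini-Hochberg adjustment over all of them and calls at an adjusted p under 0.05. SE is the absolute log2 change over the square root of F, and approximate 95% intervals use 8 degrees of freedom. Levels are mean ± SD. No replicate pair was close enough to be the same library (lowest chi-square per degree of freedom 5.40). Separate animals are not stated for the libraries, and p-values then measure only the spread between these samples, which may be technical. Total counts bound precision, and PCR reads carry no molecular identifiers.

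The 8 members and the pathway and marker lists (239 symbols) were chosen with earlier results of these data known. Named genes are all members, up to 3 called genes of each pathway list by smallest p, and 2 genes of most similar profile per member (mean of at least 10 CPM); the few others overlap a member or are marked in the text as named after their values were seen. A gene that this rule names is not reported here. Alternatives tried were other scalings, filters and tools (DESeq2 1.42.0, limma 3.58.1 with voom or with log2 FPKM plus 1 or 0.1), the replicate number as a block, an erythroid covariate, leaving out each library, and leaving out fibrosis 4 and 5. The code was tested on simulated counts.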

Additional observations from a re-analysis of the deposited data

Results flagged for a closer look

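Each of 29 genes (the 8 members and the 21 other genes that the naming rule took from the pathway lists) was examined in both groups for a library far from the rest by Dixon's criterion, which chance meets in about 1 of 20 groups. None of the 8 members had such a library. Dusp8 stood at 15.45 CPM in control 5, where the next control was at 8.88 CPM. Map3k20, a stress-activated MAP3K gene, stood at 23.44 CPM in control 5, where the next control was at 17.94 CPM. Control 5 also had the highest erythroid and cycling-cell marker levels of the controls, at 0.31 and 0.22 above the control mean on the log2 scale. Their part in these values was not tested.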

How the results depend on the processing

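Dusp10 and Dusp6 kept their direction and their call under all 22 alternatives, and Dusp5 and Dusp16 under all but the erythroid covariate. That covariate cannot be told apart from the group, so a call kept or lost under it does not show how firm a result is. With that covariate 165 genes were called (91 higher, 74 lower) and 2 of the pathway lists, no member was higher (0 called), Dusp16 was at 0.607 and Dusp5 at -0.472 without passing, Dusp7 was at -0.164, and Dusp2 passed at -0.944. Dusp2 also passed with library size scaling (-0.468), no filter (-0.407), DESeq2 (-0.371) and the replicate block (-0.39). With voom quality weights Dusp1 (0.73) and Dusp7 (0.373) passed, so 3 members were higher, and Dusp4 was at 0.118. Dusp4, which passed under no alternative, was at 0.000401 with the stricter filter and 0.269 without fibrosis 4 and 5, where Dusp7 passed (0.427) and 2 members were higher. Leaving out each library in turn moved Dusp4 between -0.177 and 0.147, Dusp2 between -0.466 and -0.254 and Dusp7 between 0.16 and 0.341, with 1 to 2 members higher, 3 to 4 lower and 4135 to 5496 genes called. The cause of these moves was not tested. Library size scaling moved the median gene to -0.06, against 0.05 with TMM. Replicate numbers are shared by both groups, but same-numbered libraries did not all deviate together (r from -0.248 to 0.419 across genes, own number highest for 3 of 5), so they were not taken as pairs. The block gave 5211 calls, against 5105, and 5 called members. Map3k13 was not tested under the stricter filter or with FPKM. Depth limits Dusp9, Styxl1, Spry4 and Map3k13, which averaged under 2 CPM in both groups.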

Other observations

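Atypical dual-specificity phosphatases, small relatives without the MAP kinase docking domain, were higher in 3 of 12 tested genes and lower in 0, a share called below the 35.7% of all tested genes (18.6% higher, 17.2% lower). Dusp28 averaged 15.8 ± 1.65 CPM in fibrosis and 11.6 ± 1.10 CPM in control (0.45 ± 0.11, adjusted p = 0.00763 by edgeR). Dusp3 (0.27 ± 0.08) and Dusp12 (0.54 ± 0.17) also passed, but lost their calls without 6 and 2 of the 10 libraries in turn, and were at 0.20 and 0.37 without fibrosis 4 and 5 (adjusted p = 0.089 and 0.107; 0.015 to 0.296 and 0.00423 to 0.244 across the alternatives).

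Of 19 immediate-early and stress genes that respond to cell handling, 4 were higher and 2 lower, near the 18.6% and 17.2% of all tested genes, with a median of -0.03. Klf6, a zinc finger transcription factor gene, averaged 102 ± 14.0 CPM in fibrosis and 60.5 ± 6.21 CPM in control (0.76 ± 0.11, adjusted p = 0.000178 by edgeR). The lower genes were Egr1 and Nr4a1, with Nr4a1 at -0.40 ± 0.11 (adjusted p = 0.00999). The other higher genes, named after their values were seen, were Hspa1a (1.58 ± 0.43, adjusted p = 0.0114), Klf2 (0.35 ± 0.12, adjusted p = 0.040) and Nfkbia (0.28 ± 0.09, adjusted p = 0.0302), and in each of them the groups overlapped. Hspa1a has a near-identical copy, Hspa1b (0.94 ± 0.45, adjusted p = 0.125), and reads may have been split between them.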
